A study of Mus musculus with 12 samples.

Results

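The homeostatic microglia genes are 10 named genes that microglia transcribe strongly in the resting brain: P2ry12, P2ry13, Tmem119, Cx3cr1, Csf1r, Siglech, Gpr34, Fcrls, Sall1 and Selplg. They were listed by name, with earlier results of these data known, and looked up by symbol in 2 tables. All 10 were found among the 30165 genes of the OPC table and among the 17918 genes of the neuron table, and all 10 passed the filter on low counts in both, where 17364 and 14352 genes passed in all.

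Microglia are the resident macrophages of the brain. In the undisturbed brain they survey the tissue with motile processes, and the receptors on those processes read nucleotides, chemokines and lipids released by other cells. Most genes of that state are silent or low in cells of neural origin, and their reads in a sorted fraction of another cell type are commonly used as a gauge of microglial RNA in it. In the OPC libraries Sall1 did not vary with the other 9 members, as shown further on. When microglia become activated or are disturbed by dissociation, transcripts of this state are often lost while transcripts of an activated state appear.

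Oligodendrocyte precursor cells (OPCs) and neurons were sorted from mouse cortex and sequenced as bulk RNA, with 3 libraries per cell type and genotype, 12 in all. Each library held cells from 2 mice that had been pooled. Knockout (dKO) mice carried NG2-CreERT2, a tamoxifen-inducible recombinase under the promoter of the proteoglycan NG2, with floxed Cacna1c and Cacna1d, which encode the pores of the L-type calcium channels CAV1.2 and CAV1.3. Control (ctl) mice are given as WT, and whether they had the Cre transgene or floxed channel genes is not given in the sources used here. Tamoxifen was given at 100 mg/kg on postnatal days 7 and 8, and the age at sorting is not given in those sources. NG2 is also made by pericytes, and which cells recombined was not measured in these libraries. OPCs were retained on magnetic beads against CD140, NG2 and O4 after an Fc-receptor blocker. Neurons were the cells that did not stay on the column after incubation with beads against ACSA-2 (astrocytes), CD31 (endothelium), CD11b (microglia and other myeloid cells) and O4 (oligodendrocyte lineage).

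Total counts ranged from 14935963 to 19812274 per OPC library and from 15052892 to 16344601 per neuron library. A normalized count here is a count divided by the effective library size and multiplied by the mean effective library size of that cell type. Of the targeted genes in OPCs, Cacna1c had normalized counts of 373, 411 and 439 in ctl 1 to 3 and 252, 337 and 312 in dKO 1 to 3 (log2 fold change −0.44 ± 0.15 SE, unadjusted p = 0.0179, adjusted p = 0.349 by the Benjamini-Hochberg method, edgeR's quasi-likelihood test). Cacna1d had 251, 191 and 255 in ctl and 92.8, 153 and 232 in dKO (unadjusted p = 0.112, adjusted p = 0.531, same test). A count over the whole gene covers more than the floxed exons, so these values bear on recombination in part only. In the neuron libraries Cacna1c averaged 88.8 in ctl and 120 in dKO. Those libraries did not hold neurons alone, so these are not values of cells without NG2. The defining markers of each fraction were present in it. In ctl OPCs the 10 OPC markers summed to between 1542 and 2464 CPM (the count scaled to a fixed library total) beside 64560 to 75350 CPM for the 10 markers of mature oligodendrocytes. In ctl neurons the 10 neuron markers summed to between 606 and 819 CPM beside 22830 to 26600 CPM for 10 endothelial markers. In the same libraries 8 markers of mural cells, which include pericytes, summed to between 630.5 and 1487 CPM. Library dKO 2 of the OPCs stood apart in a further respect, with a normalized count of 13590 for Xist and 0 for Ddx3y, where the other 5 OPC libraries had 2.93 to 20.3 and 2141 to 2502. In neurons, Ddx3y was at 3147 in ctl 1 and 2524 in dKO 1 and at most 14.2 in the other 4 libraries. The part of these differences in the results was not tested.

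RefSeq gave start-site windows for 6 of the 10 members, 8 windows in all because Sall1 has several start sites. The 250 bases before each start site were searched on both strands for 3 short motifs of factors known from the microglial lineage. These were GAGGAA, a core of the sites of PU.1, GGAANNGAA, a composite of PU.1 and interferon regulatory factors, and TANNNNTAG, a shortened MEF2 site. GAGGAA was in the windows of P2ry13 and Fcrls (2 of 8, beside 23.3% of all 32851 windows), TANNNNTAG in those of Cx3cr1, P2ry12 and P2ry13 (3 of 8, beside 19.0%) and GGAANNGAA in 0 of 8 (beside 6.99%). A match describes letters only. A pair of windows free of annotated exons is shown, P2ry13 for a member that moved with the group in the counts below and Sall1 for the member that did not. Capitals mark a TANNNNTAG match on the reverse strand, 128 bases before the start site, and a GAGGAA match 48 bases before it. The Sall1 window holds none of the 3 motifs. Neither does the window of Siglech, a member that moved with the group, and a link of motifs to counts was not tested.
P2ry13, GRCm38.p6 chr3:59210883-59211132, minus strand: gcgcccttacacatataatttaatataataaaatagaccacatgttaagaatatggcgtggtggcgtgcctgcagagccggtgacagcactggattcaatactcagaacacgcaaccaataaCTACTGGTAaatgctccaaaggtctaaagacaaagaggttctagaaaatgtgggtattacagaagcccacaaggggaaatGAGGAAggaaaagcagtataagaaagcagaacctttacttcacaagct
Sall1, GRCm38.p6 chr8:89044163-89044412, minus strand: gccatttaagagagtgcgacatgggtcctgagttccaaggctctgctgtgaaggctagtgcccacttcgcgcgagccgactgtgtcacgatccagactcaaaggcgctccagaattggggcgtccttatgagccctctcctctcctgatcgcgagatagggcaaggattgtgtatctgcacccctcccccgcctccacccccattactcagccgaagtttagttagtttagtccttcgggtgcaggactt

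The members lie on 7 chromosomes, by the GENCODE M21 annotation of GRCm38. P2ry13 (chr3:59207892-59210882, minus strand) and P2ry12 (chr3:59216272-59262871, minus strand) are neighbours 5.39 kb apart, both inside Med12l on the plus strand. Tmem119 (chr5:113793729-113800516) and Selplg (chr5:113818536-113832644) are neighbours 18.0 kb apart, both on the minus strand. Fcrls is at chr3:87250758-87263738, Sall1 at chr8:89027235-89044162 and Cx3cr1 at chr9:119901616-120069879, all on the minus strand. Siglech is at chr7:55768178-55778925, Csf1r at chr18:61100598-61132149 and Gpr34, which lies inside Cask, at chrX:13632089-13640858, all on the plus strand. The library kit did not mark strand, so reads from opposite strands cannot be told apart where exons overlap, as P2ry12 does with Med12l, Csf1r with Hmgxb3 and Cx3cr1 with Gm33858. In OPCs Med12l had normalized counts of 226, 194 and 194 in ctl and 161, 286 and 216 in dKO, and Hmgxb3 had 625, 712 and 625 in ctl and 685, 659 and 634 in dKO. Cask had 849, 925 and 903 in ctl and 931, 1183 and 825 in dKO.

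In OPC libraries, 9 of the 10 members were higher in dKO than in ctl, by 2.30-fold (Gpr34) to 3.63-fold (Selplg), and Sall1 was at 0.972-fold. The difference came from libraries dKO 1 and dKO 3, and dKO 2 lay at the level of the controls. None of the 10 passed at an adjusted p under 0.05 over all genes (edgeR's quasi-likelihood test), where 0.00576% of all genes tested did so, the single gene 1520401A03Rik, named after its values were seen. At an unadjusted p under 0.05, 9 of 10 members were higher in dKO, beside 6.27% of all genes. For 3 of 10, Csf1r, Siglech and Selplg, every dKO library lay above every ctl library, beside 7.41% of all genes. The median log2 fold change was 1.44 over the members and 0.005 over all genes tested. In bulk samples like these, fewer cells of a type and less RNA per cell cannot be told apart.

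Among the purinergic receptors, P2ry12 encodes the ADP receptor that guides microglial processes towards released nucleotides, and it had normalized counts of 418, 293 and 410 in ctl 1 to 3 and of 996, 392 and 1424 in dKO 1 to 3. Libraries dKO 1 and dKO 3 were above the controls and dKO 2 lay among them, so the groups overlapped. The log2 fold change of P2ry12 was 1.32 ± 0.40 (SE, unadjusted p = 0.00954, adjusted p = 0.312, edgeR's quasi-likelihood test). P2ry13, a related ADP receptor, had 143, 104 and 105 in ctl and 385, 129 and 463 in dKO, in the same order of libraries. Its log2 fold change was 1.47 ± 0.42 (SE, unadjusted p = 0.00719, adjusted p = 0.307, same edgeR test).

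Csf1r encodes the receptor for CSF1 and IL-34, on which microglia depend for survival. Its normalized counts were 1181, 1149 and 1327 in ctl and 3495, 1375 and 4836 in dKO. All dKO libraries were above all ctl libraries, but dKO 2 exceeded ctl 3 by a margin smaller than the spread among controls. The log2 fold change of Csf1r was 1.41 ± 0.37 (SE, unadjusted p = 0.00501, adjusted p = 0.292, edgeR). Cx3cr1, the receptor for the neuronal chemokine fractalkine, had 550, 481 and 470 in ctl and 1497, 466 and 2263 in dKO. Here dKO 2 was the lowest of the 6 libraries (log2 fold change 1.49 ± 0.46 SE, unadjusted p = 0.0107, adjusted p = 0.313, edgeR). Gpr34, a receptor for lysophosphatidylserine, had 155, 164 and 172 in ctl and 408, 150 and 575 in dKO, again with dKO 2 lowest of all.

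Siglech, a lectin of the sialic acid binding family, had normalized counts of 129, 124 and 165 in ctl and 419, 182 and 621 in dKO. Fcrls, a scavenger receptor of the Fc receptor-like family, had 273, 301 and 379 in ctl and 898, 336 and 1153 in dKO. The dKO 2 value of Siglech was above the controls and that of Fcrls lay among them. Tmem119, a membrane protein used to tell microglia from blood-borne macrophages, had 159, 208 and 238 in ctl and 686, 208 and 1027 in dKO. Selplg encodes the selectin ligand PSGL-1, and had 232, 200 and 237 in ctl and 930, 277 and 1225 in dKO. It showed the largest fold change of the members (log2 fold change 1.86 ± 0.45 SE, unadjusted p = 0.00292, adjusted p = 0.286, edgeR), and dKO 2 was the lowest of its dKO libraries.

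Sall1, which encodes a zinc finger transcription factor that maintains microglial identity, stood apart from the rest. Its normalized counts were 1160, 1416 and 1147 in ctl and 1219, 1093 and 1306 in dKO. The groups overlapped throughout, and the log2 fold change was −0.04 ± 0.12 (SE, unadjusted p = 0.747, adjusted p = 0.924, edgeR). Sall1 is set apart in what follows because of these values, so the contrast with the other 9 carries no test.

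**Figure D1:**
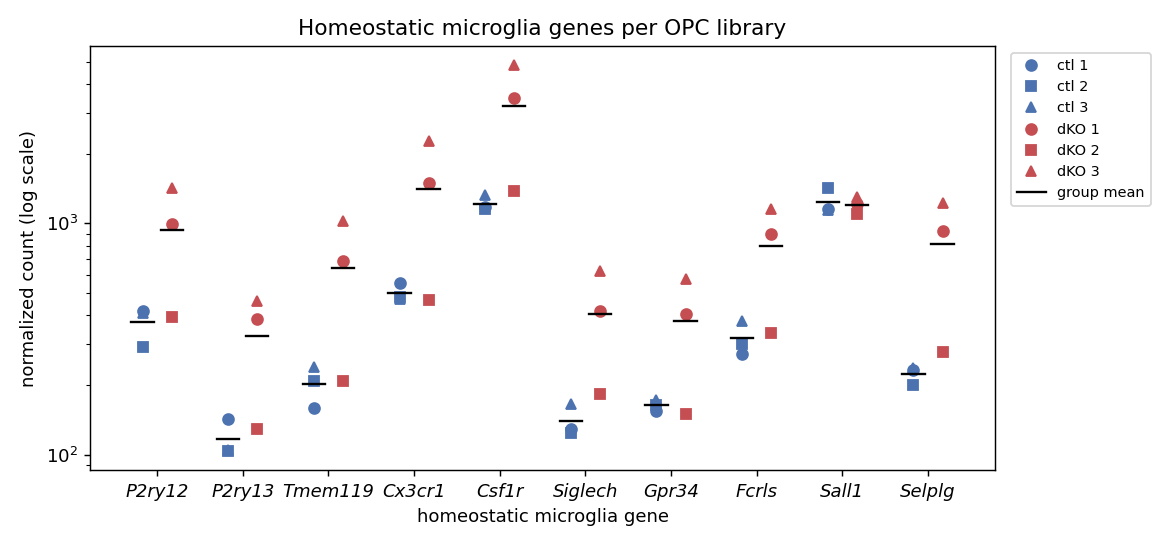
Normalized counts (log scale) of the 10 homeostatic microglia genes in each OPC library, with ctl in blue, dKO in red, one symbol per replicate number and a black bar at each group mean. For every member other than Sall1 the dKO 1 and dKO 3 points lie above all 3 ctl points while dKO 2 lies near them, and the 6 points of Sall1 lie between 1093 and 1416.

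Among the other 9 members, dKO 3 was the highest library and dKO 1 the second highest in 9 of 9. Relative to the mean of the ctl libraries, dKO 3 reached 3.51 to 5.49 times that mean, dKO 1 reached 2.49 to 4.17 times and dKO 2 reached 0.914 to 1.31 times. Over all 10 members, dKO 2 lay within the ctl range for 4, above it for 3 and below it for 3. The highest ctl library exceeded the lowest by 1.11 to 1.496 times, so the spread among dKO libraries (3.40 to 4.94 times) was far wider than that among ctl libraries. Summed over the 10 members, the level was 252, 254 and 266 CPM in ctl and 626, 264 and 852 CPM in dKO.

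With edgeR and the filter on low counts, the call turned on dKO 2. Without dKO 2, the 9 members passed at adjusted p-values of 0.00288 to 0.0101 (edgeR's quasi-likelihood test, 2 dKO against 3 ctl libraries) with log2 fold changes of 1.58 to 2.27, beside 1.15% of all genes. With any other single library left out, 0 of 10 passed, with adjusted p-values of 0.317 to 0.779 for the 9 members. DESeq2 on all 6 libraries called 7 of 10 (all but Cx3cr1, Gpr34 and Sall1), beside 1.72% of all genes, and edgeR without the filter on low counts called Csf1r, Siglech and Selplg, beside 0.288%.

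**Figure D2:**
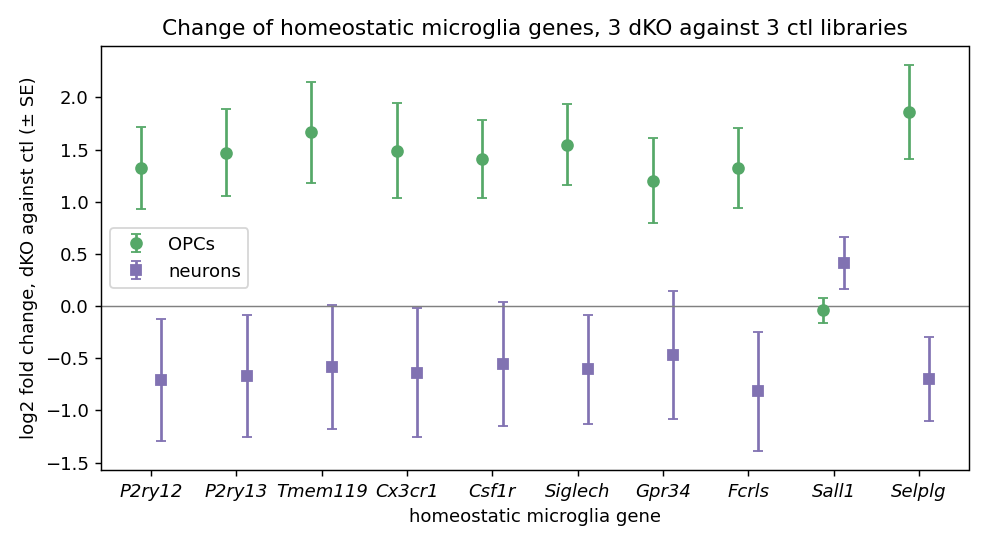
Log2 fold change of each homeostatic microglia gene, dKO against ctl (3 against 3 libraries), with bars of 1 SE, for OPCs (green circles) and neurons (purple squares). In OPCs 9 genes lie between 1.20 and 1.86 and Sall1 at −0.04, and in neurons 9 genes lie between −0.82 and −0.47 and Sall1 at 0.41, none past an adjusted p of 0.05.

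In neuron libraries the members were lower on average in dKO, but no member differed at an unadjusted p under 0.05 in either direction. None of the 10 passed the adjusted threshold either, with adjusted p-values of 0.645 to 0.841 (edgeR's quasi-likelihood test), where 0.0% of all genes passed (0 genes), and DESeq2 called 0 members and 0.613% of all genes. Lower in dKO at an unadjusted p under 0.05 were 0 of 10 members, beside 4.04% of all genes, and all dKO libraries were below all ctl libraries for 0 of 10, beside 7.82%. The log2 fold change was below 0 for 9 of 10 members, with a median of −0.62 over the members and 0.007 over all genes tested. The OPC and neuron tables were counted in different ways, so the difference between the cell types in this change was not tested.

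The neuron values of P2ry12 show how the libraries were spread, with 4855, 835 and 2248 in ctl and 803, 2445 and 1614 in dKO. Library ctl 1 was highest, and ctl 2 was close to the lowest dKO library (log2 fold change −0.71 ± 0.59 SE, unadjusted p = 0.261, adjusted p = 0.740, edgeR). P2ry13 had 1346, 226 and 623 in ctl and 280, 725 and 373 in dKO, with ctl 1 highest and ctl 2 lowest. Cx3cr1 had 2661, 476 and 1121 in ctl and 438, 1574 and 723 in dKO. Csf1r had 3194, 804 and 1785 in ctl and 451, 2257 and 1233 in dKO. Both receptors were highest in ctl 1 and lowest in dKO 1.

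Tmem119 had normalized counts of 1196, 234 and 590 in ctl neurons and 219, 781 and 347 in dKO neurons. Siglech had 1035, 213 and 455 in ctl and 239, 548 and 331 in dKO. The spread among ctl libraries was wider than the difference between group means for both. Gpr34 had 1841, 267 and 934 in ctl and 348, 1036 and 810 in dKO. Fcrls had 1882, 366 and 1045 in ctl and 303, 992 and 573 in dKO. These receptors kept the same order among the ctl libraries, with ctl 1 above ctl 3 and ctl 3 above ctl 2.

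Selplg, with 1446, 476 and 1225 in ctl and 669, 863 and 409 in dKO, departed from that order in dKO, where dKO 3 was lowest. Sall1 had 334, 227 and 383 in ctl and 420, 512 and 320 in dKO. It was the single member with a higher mean in dKO (log2 fold change 0.41 ± 0.25 SE, unadjusted p = 0.138, adjusted p = 0.660, edgeR), and its range over the libraries was narrower than that of the other 9.

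Among those 9 members, ctl 1 was the highest library in 9 of 9, and dKO 2 was the second highest in 7 of 9. The highest ctl library exceeded the lowest by 3.04 to 6.91 times, wider than the 1.11 to 1.496 times of the OPC controls. Summed over the 10 members, the level was 1268, 264 and 667 CPM in ctl neurons and 267, 752 and 431 CPM in dKO neurons. The direction rested on ctl 1, since without it 8 of 10 log2 fold changes were above 0 and the median was 0.12. Without ctl 2, 5 members (Fcrls, P2ry12, P2ry13, Selplg and Siglech) were lower in dKO at an unadjusted p under 0.05, beside 4.10% of all genes, and the median was −1.02.

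**Figure D3:**
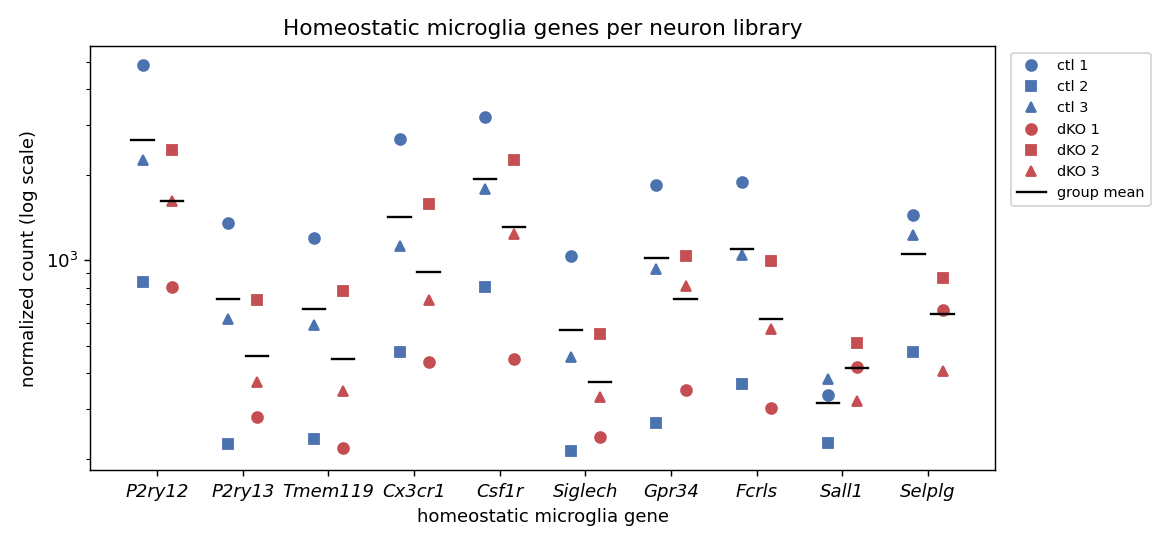
Normalized counts (log scale) of the 10 homeostatic microglia genes in each neuron library, with ctl in blue, dKO in red, one symbol per replicate number and a black bar at each group mean. The ctl 1 points are the highest for 9 members and the ctl 2 points lie near the lowest dKO points, so that the ctl libraries of P2ry12 run from 835 to 4855.

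Within a cell type the 9 members other than Sall1 moved together from library to library. In OPCs the log2 level of the 9 members had an SD over the 6 libraries of 0.84 to 1.14, but measured against the mean of the other members in the same library the SD was 0.06 (Csf1r) to 0.33 (Selplg). In neurons the same measures were 0.73 to 1.04 and 0.14 (Siglech) to 0.55 (Selplg). For Sall1 the pattern was the opposite, with an SD of 0.14 in OPCs and 0.40 in neurons, rising to 0.93 and 0.87 when measured against the other members. These are descriptions over 6 libraries of each cell type, which the members share.

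**Figure D4:**
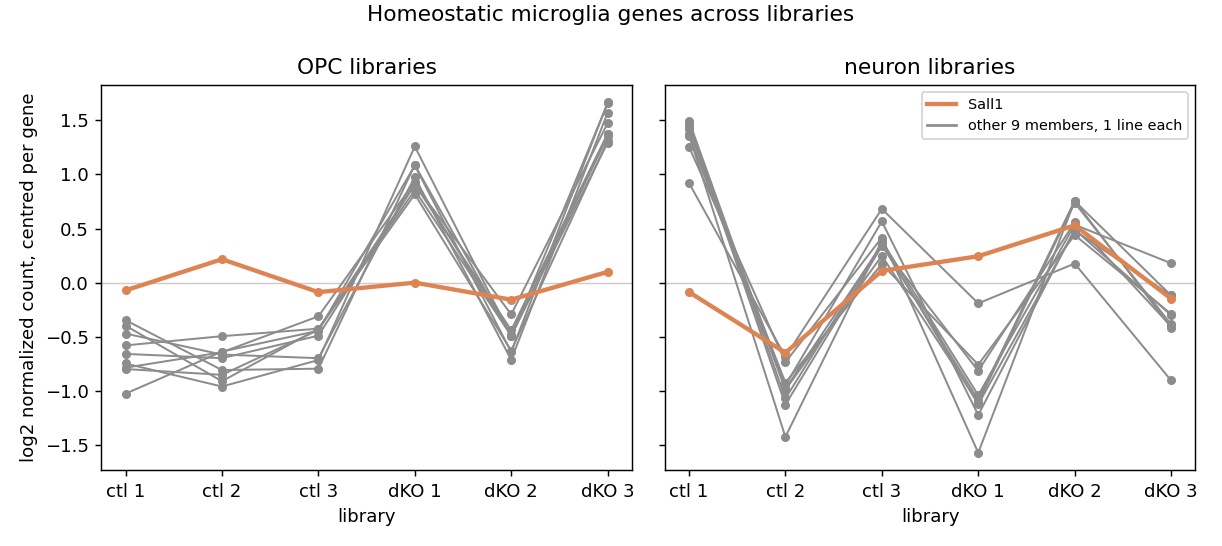
Log2 normalized count of each homeostatic microglia gene, centred on its own mean over the 6 libraries, in OPCs (left) and neurons (right), with Sall1 in orange and the other 9 members in grey. Lines only join the values of a gene. The grey lines rise and fall together, with dKO 1 and dKO 3 high in OPCs and ctl 1 high in neurons, and Sall1 stays within a range of 1093 to 1416 normalized counts in OPCs.

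Levels of different genes were compared per length, as TPM, which scales by transcript length and library total. In ctl OPCs the order was led by Sall1 at 49.3 ± 6.66 TPM (SD, n = 3) and Csf1r at 44.1 ± 3.51, whose ranges overlapped. P2ry12 (30.6 ± 5.39), Fcrls (28.5 ± 5.11) and Cx3cr1 (23.2 ± 1.68) followed, each overlapping the next in range. Tmem119 (18.3 ± 3.79) and Gpr34 (16.4 ± 1.06) overlapped each other, and Selplg (10.9 ± 0.882), P2ry13 (9.64 ± 1.68) and Siglech (8.60 ± 1.41) came last. The ranges of Csf1r and P2ry12, of Cx3cr1 and Tmem119, and of Gpr34 and Selplg did not overlap.

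In ctl neurons the order was led by P2ry12 at 128 ± 105 TPM (SD, n = 3), followed by Selplg (66.9 ± 33.5), Fcrls (63.3 ± 46.4), Gpr34 (62.9 ± 51.4) and Csf1r (55.8 ± 37.1). Cx3cr1, Tmem119, Siglech and P2ry13 lay between 33.8 and 42.8 TPM, and Sall1 was last at 6.51 ± 1.43. Each neighbour overlapped the next in range, other than P2ry13 and Sall1. The members summed to 240 ± 11.9 TPM in ctl OPCs and 532 ± 392 TPM in ctl neurons, and the neuron range, 189 to 959 TPM, took in the ctl OPC values. Sall1 held 20.6% of the members' TPM in ctl OPCs and 1.22% in ctl neurons. The tables differ in how reads were assigned to transcripts, so these values are set side by side without a test.

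Outside the list, the genes whose pattern over the 6 libraries lay closest to the mean pattern of the members were sought among all genes tested, by the root mean square distance of centred log2 CPM. In OPCs the 5 closest were Olfml3 (distance 0.095), Irf8 (0.096), Cyth4 (0.098), Parvg (0.104) and Abcc3 (0.111), where the median gene was at 0.828. The members themselves, which are part of that mean, lay at 0.05 (Csf1r) to 0.268 (Selplg), and Sall1 at 0.763. In neurons the 5 closest were Ctss (0.116), Fcgr3 (0.153), Hpgds (0.157), C1qa (0.177) and Ly86 (0.183), where the median gene was at 0.815. Olfml3, Ctss, Hpgds, C1qa and Ly86 were on the list of microglia identity genes and Irf8 on that of transcription factors.

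Other lists of the microglial program were set beside the members. Of the 35 microglia identity genes, 31 were higher in dKO OPCs at an unadjusted p under 0.05 (6.27% of all genes), 16 had every dKO library above every ctl library (7.41% of all genes), and 0 passed at an adjusted p under 0.05 (edgeR). Their median log2 fold change was 1.21. Ctss, which encodes the lysosomal protease cathepsin S, had normalized counts of 567, 501 and 652 in ctl and 1771, 796 and 2044 in dKO. The complement gene C1qa had 407, 429 and 540 in ctl and 1560, 701 and 1812 in dKO. For both, dKO 2 was above all controls but below the other dKO libraries. The paper, which used DESeq2, names C1qa among the genes raised in dKO OPCs. With the mean log2 level of this identity list as a term in the fit, 0 of the 10 members differed in OPCs at an unadjusted p under 0.05. Of all 17364 genes, 1172 were higher and 769 lower in that fit. The median log2 fold change of the members was −0.10. The term is made of genes that moved with most members in the same libraries, so this result decides nothing about the members. In neurons 34 of the 35 had a log2 fold change below 0 (median −0.67), 2 of them at an unadjusted p under 0.05, beside 4.04% of all genes.

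Of 12 transcription factors of microglia, 6 were higher in dKO OPCs at an unadjusted p under 0.05, beside 6.27% of all genes, and 0 at an adjusted p (edgeR), with a median log2 fold change of 0.91. Those with the highest counts (Mef2a, Bhlhe41, Smad3 and Mef2c) had log2 fold changes of 0.03, −0.03, 0.26 and 0.34, with unadjusted p-values of 0.0595 to 0.875 (edgeR's quasi-likelihood test). Irf8, a factor needed for microglial development, had 81.4, 64.3 and 85.7 in ctl and 224, 78.9 and 277 in dKO.

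Ligands of the member receptors, and Tgfb1, whose receptor is on the identity list and not a member, were read in the same libraries. Csf1, a ligand of Csf1r, had normalized counts of 2307, 2807 and 2449 in ctl OPCs and 2283, 2195 and 2309 in dKO OPCs. Cx3cl1, the ligand of Cx3cr1, had 958, 668 and 939 in ctl and 986, 955 and 1278 in dKO. Of the 6 genes on this list 5 were tested, and Tgfb1 alone was higher at an unadjusted p under 0.05, beside 6.27% of all genes (log2 fold change 0.76 ± 0.26 SE, unadjusted p = 0.0180, adjusted p = 0.349, edgeR). In neurons Csf1 had 1126, 616 and 587 in ctl and 286, 474 and 415 in dKO, all dKO libraries below all ctl libraries (log2 fold change −0.99 ± 0.29 SE, unadjusted p = 0.00883, adjusted p = 0.521, edgeR).

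Markers of other myeloid and brain cells moved with the members in part. The 10 markers of border macrophages, which live in the meninges and around vessels, summed to 59.4 to 67.5 CPM in ctl OPCs and 71.9 to 137 CPM in dKO OPCs, with 3 of 10 higher at an unadjusted p under 0.05, beside 6.27% of all genes. Of 12 blood leukocyte genes, 1 (Itgal) had enough counts to be tested in OPCs, and the list summed to 0.954 to 2.57 CPM in ctl and 1.56 to 6.24 CPM in dKO. In neurons the same 12 genes were all tested and summed to 88.8 to 260 CPM in ctl and 59.2 to 168 CPM in dKO. Itgam, which encodes the CD11b bound by the beads of the neuron sort, had 547, 141 and 467 in ctl neurons and 103, 375 and 170 in dKO neurons, and so was still present after that step.

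Of 10 astrocyte markers, 9 were higher in dKO OPCs at an unadjusted p under 0.05, beside 6.27% of all genes, and the list summed to 1233 to 2146 CPM in ctl and 2043, 6107 and 3169 CPM in dKO 1 to 3. The astrocyte genes were thus highest in dKO 2, where the members were at the level of the controls. The 10 endothelial markers summed to 1444 to 2094 CPM in ctl OPCs and 2547, 1198 and 3287 CPM in dKO 1 to 3, with 0 of 10 at an unadjusted p under 0.05 (edgeR) and dKO 1 and dKO 3 highest, as for the members. The 8 mural markers had the same order of libraries, at 789 to 1123 CPM in ctl and 1399, 709 and 1448 CPM in dKO 1 to 3, with 0 of 8 at an unadjusted p under 0.05. The 10 oligodendrocyte markers were lowest in dKO 3, where the members were highest, with 82850, 69180 and 47580 CPM in dKO 1 to 3 beside the 64560 to 75350 CPM of ctl. Their log2 fold change was below 0 for 8 of 10, with 3 lower at an unadjusted p under 0.05 (5.27% of all genes) and 3 with every dKO library under every ctl library (9.55% of all genes). The 10 OPC markers summed to 2202, 2694 and 1409 CPM in dKO 1 to 3 beside 1542 to 2464 CPM in ctl, lowest in dKO 3 and highest in dKO 2.

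In neurons the marker lists of other cells also moved with library and genotype. The 10 oligodendrocyte markers summed to 3777, 2042 and 505 CPM in ctl 1 to 3 and 1046, 1045 and 1717 CPM in dKO 1 to 3, and all 10 had a log2 fold change below 0 (0 at an unadjusted p under 0.05, edgeR). The 10 astrocyte markers summed to 1196, 429 and 529 CPM in ctl and 323, 580 and 633 CPM in dKO, with 8 of 10 below 0 and 2 of them at an unadjusted p under 0.05, beside 4.04% of all genes. Library ctl 1, the highest for 9 members, was thus also the highest for both of these lists. The endothelial markers summed to 22830 to 26600 CPM in ctl and 11860 to 20550 CPM in dKO, with 10 of 10 below 0, 7 of 10 without overlap (7.82% of all genes) and 3 at an unadjusted p under 0.05 (4.04%). Of the 10 neuron markers, 9 had a log2 fold change above 0, with 1 at an unadjusted p under 0.05 (4.96% of all genes), and their sum was 606 to 819 CPM in ctl and 809 to 1412 CPM in dKO.

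None of the markers named in these lists was at 0 in all libraries of a cell type. The part of each of these cell types in the member values was not tested.

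**Figure D5:**
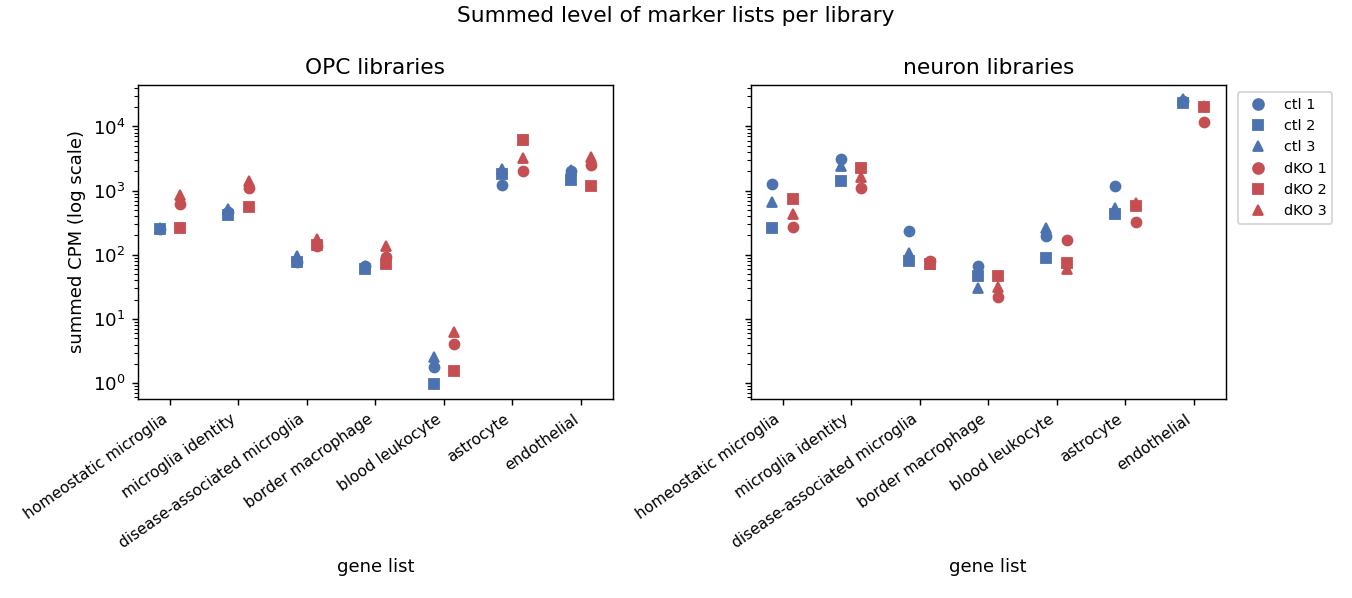
Summed CPM (log scale) of 7 marker lists in each OPC library (left) and neuron library (right), with ctl in blue, dKO in red and one symbol per replicate number. In OPCs the homeostatic and identity lists are highest in dKO 1 and dKO 3, the astrocyte list is highest in dKO 2 at 6107, and in neurons the homeostatic list is highest in ctl 1 at 1268.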

How the data were processed

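The OPC table the authors deposited holds raw counts and FPKM per gene, made per their methods with HISAT2 and featureCounts on GRCm38 (the labels name mm39). For neurons the authors deposited estimated counts and TPM per transcript. Their methods name featureCounts, per gene, for all samples. The program that made the neuron values per transcript is not given in the sources used here. The estimated counts were summed per Entrez gene and rounded, and gene identifiers were matched to symbols for 17794 of 17918 genes (those without held 0.0441% of counts). FPKM were rescaled to TPM for levels between genes. The tables also hold the authors' own fold changes and p-values, which were not used.

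Each cell type was fitted with edgeR 4.0.16 (R 4.3.3), with a term for genotype alone, over genes whose normalized count averaged 10 or more. TMM factors came from those genes, and p-values were adjusted over them by the Benjamini-Hochberg method (threshold 0.05). SE was computed as the log2 fold change over the root of F. The alternative tool was DESeq2 1.42.0, the package that the authors used in an older version. Marker lists were counted with edgeR alone, so their calls by DESeq2 are not given. On simulated data the test called 170 of 188 changed genes for OPCs and 162 of 198 for neurons, and 9 unchanged genes for each. The median estimate of the simulated rises was a log2 fold change of 2.03 for OPCs and 2.01 for neurons. These were larger than the change of any member over all 6 libraries, so power for the members was not measured. No 2 replicate libraries were copies (lowest chi-square per gene 15.7). P-values measure the spread between pools of mice.

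Members and marker lists were chosen with earlier results of these data known. Named were all members, up to 4 genes per list by mean count, the 5 closest in pattern, the genes that overlap members, and genes tied to the sort or the knockout. The alternatives were another tool, RLE factors, no filter, a replicate block, a microglia term, summed levels from raw totals or per length, each library left out and, added after seeing the data, TMM factors from all genes.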

Additional observations from a re-analysis of the deposited data

How the results depend on the processing

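Over the alternatives, 45 of 50 values over the members in OPCs and 48 of 50 in neurons stayed within 1.5 times (counts) or 1 SD (medians and the log2 ratio of the summed level) of the reported value. The limit was loose, since in neurons that SD was 0.914, wider than the median of −0.62, and allowed a change of sign. Counts of 0 that stayed at 0 are also among these values, so the tally does not measure stability. That ratio was recomputed from CPM with raw totals and per length, and was 1.17 to 1.24 in OPCs and −0.61 to −0.57 in neurons. Among the medians, the neuron median of −0.62 turned above 0 in 2 cases, to 0.12 without ctl replicate 1 and to 0.27 with a term for the microglia identity genes. In OPCs the number of members at an adjusted p under 0.05 moved from 0 to 7 with DESeq2 and to 3 with no filter on low counts, and ranged from 0 to 9 with 1 library left out, the 9 coming without dKO replicate 2. With the microglia identity term, the number higher at an unadjusted p under 0.05 was 0 in OPCs (1172 of all 17364 genes were) and the median was −0.10. Log2 fold changes then turned to −0.14 for P2ry12 and Tmem119, −0.28 for Cx3cr1 and Gpr34 and −0.069 for Fcrls. Sall1 in OPCs ranged from −0.112 to 0.064 with 1 library left out, above 0 without ctl replicate 2 (0.064) or dKO replicate 2 (0.026). In neurons the identity term gave 1 member higher at an unadjusted p under 0.05 (Sall1, adjusted p = 0.9997, edgeR), beside 302 of all 14352 genes. Log2 fold changes with it were 0.27 for P2ry12 and Tmem119, 0.31 for P2ry13, 0.29 for Cx3cr1, 0.15 for Csf1r, 0.25 for Siglech, 0.61 for Gpr34 and 0.059 for Fcrls. That term is itself made of microglial genes. With 1 library left out, the neuron log2 fold changes ranged from −1.131 to 0.075 for P2ry12, −1.161 to 0.118 for P2ry13, −1.249 to 0.124 for Tmem119, −1.287 to 0.193 for Cx3cr1, −1.191 to 0.022 for Csf1r, −0.999 to 0.159 for Siglech and −0.924 to 0.288 for Gpr34, and each upper value came without ctl replicate 1. The number of members lower in neurons at an unadjusted p under 0.05 ranged from 0 to 5 with 1 library left out, the 5 coming without ctl replicate 2.

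With the replicate block, 0 members passed the adjusted threshold in either cell type, 9 in OPCs were higher at an unadjusted p under 0.05 (1228 of all 17364 genes were), 0 in neurons were lower (591 of all 14352 genes were), and the medians were 1.24 and −0.51. The genes called over the whole OPC table went from 1 to 27. Same-numbered libraries did not deviate together in each pair (correlations of −0.11, 0.16 and 0.12 in OPCs and 0.17, −0.07 and −0.07 in neurons), so the numbers were not taken as pairs. In neurons, ctl 1 and dKO 1 are also the libraries with Y-linked counts. With 3 libraries per group, 1 library decided the filtered edgeR call in OPCs and 1 the direction in neurons. Leaving out the filter on low counts also moved the OPC call, to 3 members.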

Other observations

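Genes of the disease-associated state of microglia, the state in which homeostatic genes are typically lost, were measured in the same OPC libraries. Of 12 listed genes 11 were tested, and 9 were higher in dKO at an unadjusted p under 0.05, beside 6.27% of all genes, and 0 at an adjusted p (edgeR). For 9 of 11 every dKO library lay above every ctl library, beside 7.41% of all genes, and the median log2 fold change was 1.00. Summed, they reached 78.2, 77.1 and 95.5 CPM in ctl and 137, 143 and 178 CPM in dKO 1 to 3. Library dKO 2 was above all controls in this sum, as it was for the microglia identity genes (563 CPM beside at most 524 CPM in ctl). The chemokine gene Ccl4 had normalized counts of 98.9, 83.4 and 105 in ctl and 374, 117 and 461 in dKO. Axl, a receptor tyrosine kinase for the clearing of dying cells, which astrocytes also make, had 839, 898 and 1082 in ctl and 1115, 1799 and 1405 in dKO, highest in dKO 2 as the astrocyte list was. It made up 103 of the 143 CPM in dKO 2. Without Axl, a sum added after seeing the data, the other 11 listed genes came to 30.2, 25.7 and 33.5 CPM in ctl and 73.2, 40.2 and 97.2 CPM in dKO, with dKO 1 and dKO 3 highest, as for the homeostatic genes.

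In neurons 10 of the 11 disease-associated genes tested had a log2 fold change below 0, with a median of −0.72, 2 of them at an unadjusted p under 0.05, beside 4.04% of all genes, and the list summed to 79.1 to 233 CPM in ctl and 71.4 to 78.9 CPM in dKO. Without Axl, again a sum added after seeing the data, the groups overlapped. The other genes came to 205, 53.2 and 89.6 CPM in ctl 1 to 3 and 62.9, 46.3 and 44.4 CPM in dKO 1 to 3.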
